A study of Spirodela polyrhiza and Pistia stratiotes and Colocasia esculenta with 79 samples.

Results

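The node and the tract of the Spirodela polyrhiza frond were compared by poly-A RNA sequencing, using the 4 Node and the 4 Tract libraries, which are 8 of the 28 Spirodela libraries and of 79 libraries in the whole series. Spirodela polyrhiza is a duckweed, a free-floating plant of the arum family whose body is a flat, leaf-like frond. All 28 Spirodela libraries came from clone 9509, and their labels name neither a genotype nor a treatment. Node and Tract plants were grown at 22 °C under fluorescent light, and dissected pieces were kept in RNAlater before extraction with a micro-scale column kit. The labels name a library by its dissected region and give no age, frond stage or number of pieces pooled. Reads were 150 bp, paired. The remaining Spirodela regions are NodeTract, LowerWall, Stipe, Apical and Basal, with 4 libraries each. Their labels form another block with its own protocol text, so region and label block cannot be told apart where Node or Tract is set beside them. Tract replicate 1 stood apart from the other Tract libraries, and results are given with and without it.

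In flowering plants a node is the place on the shoot axis where leaves and buds are attached and where their vascular strands join the axis. In duckweeds it lies near the base of the frond, where veins, roots and daughter fronds originate. The labels do not describe the tract beyond its name, and the name NodeTract joins both. Meristem, vascular and photosynthetic marker genes could not be read, since the table lists transcripts by identifier without gene names. The tissue names therefore rest on the labels alone, and no role is given to any transcript. Each identifier had a single transcript in the table of 16332.

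The most abundant transcript of Node was much less abundant in Tract. Sp9509d010g010280_T001 had rank 1 in Node by its mean level and rank 5 in Tract, and every Node library was above every Tract library. Expression is given in TPM, which is scaled for transcript length and to a common total per library. The transcript stood at 76230, 92325, 79227 and 76526 TPM in the Node columns numbered 1, 3, 5 and 6, against 13179, 18172.5, 27020.2 and 9572 TPM in Tract replicates 1 to 4. It thus took between 7.62% and 9.24% of all TPM in a Node library and between 0.957% and 2.70% in a Tract library, and the groups did not overlap. The means were 81077 ± 7619 TPM in Node and 16986 ± 7562 TPM in Tract (SD, n = 4 each). The log2 difference was 2.36 (SE 0.53, limma adjusted p = 0.00311), and without Tract replicate 1 it was 2.27 (adjusted p = 0.0108). When the fit was restricted to Node and Tract the difference was the same, but the adjusted p was 0.355 and the call was lost.

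In all, 230 transcripts higher and 64 lower in Node, of 15802 tested, met the same conditions of size, separation and a call without Tract replicate 1. Over all tested transcripts, 24.9% were called, and 2.32% were called with a log2 difference of at least 2. Every Node library was above every Tract library in 18.2% of all tested and below in 6.30%. The most abundant of those that met the conditions are named here. Sp9509d003g009060_T001 was the other transcript named as higher in Node. It had 1515, 1885, 1746 and 2513 TPM in the Node columns 1, 3, 5 and 6, against 328, 323, 666 and 267 TPM in Tract replicates 1 to 4. The lowest Node library was above the highest Tract library, Tract replicate 3, which stood apart from the other Tract libraries. The means were 1915 ± 427 TPM in Node and 396 ± 182 TPM in Tract (SD, n = 4 each). The log2 difference was 2.34, with an SE of 0.36 and an adjusted p of 8.1e-05 in limma. Without Tract replicate 1 it was 2.28 (adjusted p = 0.000516).

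Sp9509d003g008330_T001 and Sp9509d010g001000_T001 were lower in Node. Sp9509d003g008330_T001 had 543, 483, 304 and 246 TPM in the Node columns 1, 3, 5 and 6, against 2100.1, 1623, 2739 and 1340.1 TPM in Tract replicates 1 to 4. All Node libraries lay below all Tract libraries, at means of 394 ± 142 and 1951 ± 612 TPM (SD, n = 4 each). On the log2 scale Node was lower by a difference of -2.33, at an SE of 0.63 and an adjusted p of 0.0111 in limma. Without Tract replicate 1 the difference was -2.27 (adjusted p = 0.0356). Sp9509d010g001000_T001 had 88.8, 33.2, 157 and 246 TPM in Node, against 2287, 769, 1332 and 1767 TPM in Tract. Again the groups did not overlap, with means of 131 ± 91.7 TPM in Node and 1539 ± 645 TPM in Tract (SD, n = 4 each). The log2 difference of -3.77 had an SE of 0.84 and an adjusted p of 0.00302 in limma, and without Tract replicate 1 it was -3.54 (adjusted p = 0.0144). Neither of these transcripts was called when the Node column 3 was left out as well.

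These transcripts behaved differently in the regions outside the comparison, as the plot of their levels in all 28 libraries shows. The mean of Sp9509d010g010280_T001 was 106075 TPM in NodeTract, above its Node mean, while LowerWall, Stipe, Apical and Basal lay at 13955, 9709, 8865 and 5903 TPM, below its Tract mean. Sp9509d003g009060_T001 averaged 1145 TPM in NodeTract and 1164 TPM in Stipe, and between 54.0 and 82.1 TPM in LowerWall, Apical and Basal. Sp9509d010g001000_T001 averaged between 170 and 239 TPM in NodeTract, Stipe, Apical and Basal. Its single libraries there were uneven, from 24.7 to 698 TPM in Apical and from 64.8 to 469 TPM in NodeTract. In LowerWall it reached 1804 ± 1076 TPM (SD, n = 4), a mean within the spread of Tract. Sp9509d003g008330_T001 had no such counterpart. Its mean was 30.7 TPM in NodeTract, 47.2 TPM in LowerWall, 4.93 TPM in Stipe, 147 TPM in Apical and 86.9 TPM in Basal, so that NodeTract stood below both Node and Tract.

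**Figure D1:**
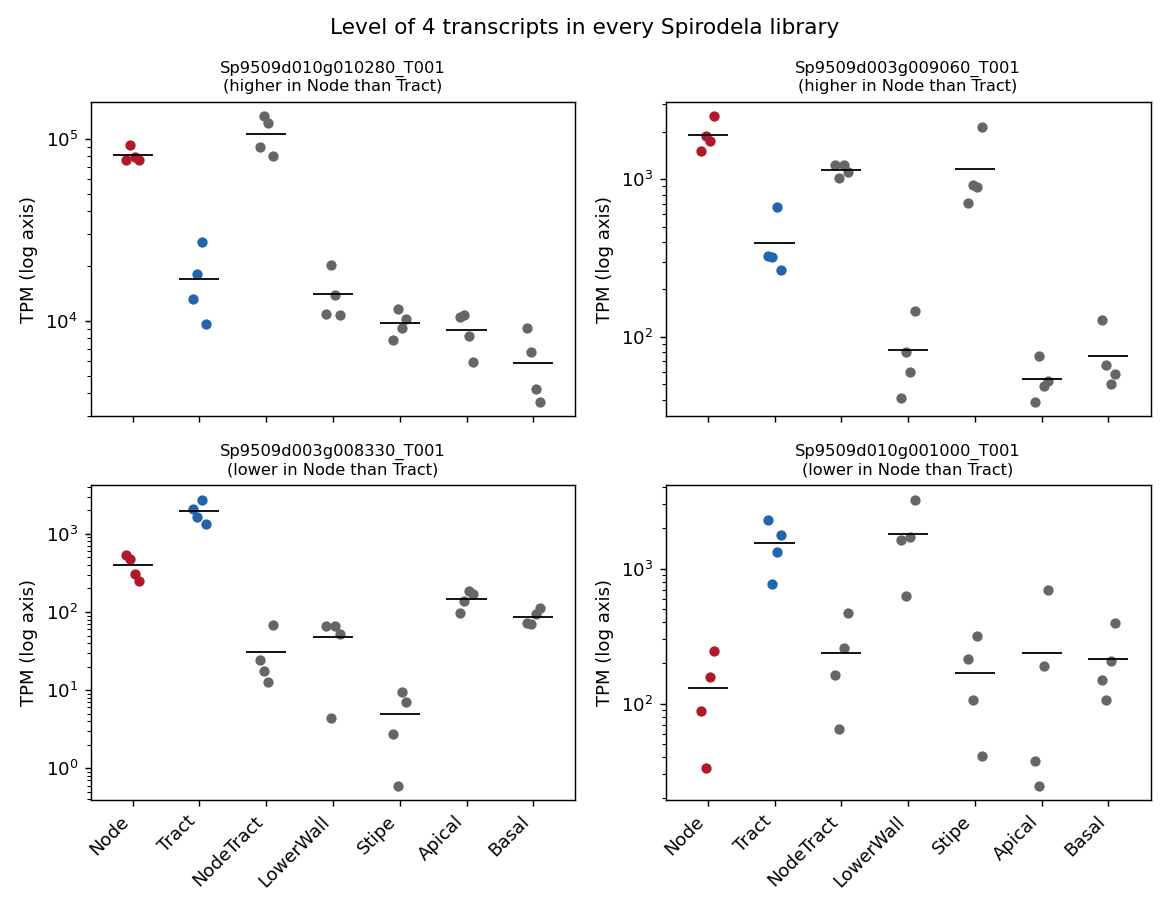
TPM on a log axis of the 2 transcripts named as higher and the 2 named as lower in Node, in each of the 28 Spirodela libraries (points) with the mean of each region (bars). Node and Tract do not overlap in any panel, and NodeTract lies with Node at the top of the panel of Sp9509d010g010280_T001 but below both regions in that of Sp9509d003g008330_T001.

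Across the transcriptome, 3936 of 15802 tested transcripts passed limma at 0.05 after Benjamini-Hochberg adjustment and were called, 24.9% of those tested. Of these 3124 were higher in Node (19.8% of those tested) and 812 were lower (5.14%). Transcripts were tested if at least 4 Spirodela libraries had at least 1 TPM, which left out 530. Most differences were moderate. The median size was 0.99 on the log2(TPM + 1) scale for transcripts higher in Node and 1.13 for those lower. A called difference of at least 2 was seen in 266 that were higher in Node and in 100 that were lower, together 2.32% of those tested. Of the called transcripts, 75 were higher by at least 3 and 18 lower by at least 3.

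The excess of higher calls went together with a shift of the whole distribution. The median log2 difference over all tested transcripts was 0.28, and after rescaling the libraries by median-of-ratios size factors it was 0.06. The calls were then 1719 higher and 1368 lower in Node, in place of 3124 and 812, with 3087 in all (19.5% of those tested). All 1719 were among the 3124, and no transcript called on the deposited scale changed sign. Size factors lay between 1.25 and 1.38 in Node and at 0.873, 1.29, 1.12 and 1.20 in Tract replicates 1 to 4. Fewer cells of a type and less RNA per cell cannot be told apart in such bulk tissue.

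The transcripts lower in Node were the more abundant ones. Those called lower had a median level of 46.3 TPM in Tract, their higher region, and those called higher a median of 24.1 TPM in Node. Among transcripts with a mean of 100 TPM or more over both regions, 9.71% were called higher and 10.1% lower, and among those between 10 and 100 TPM 21.2% were called higher and 4.90% lower. Transcripts higher in Node held 22.8 ± 2.28% of all TPM in Node and 8.83 ± 1.92% in Tract (SD, n = 4 each). Without Sp9509d010g010280_T001 the shares were 14.7 ± 1.63% in Node and 7.13 ± 1.61% in Tract. Transcripts lower in Node held 5.17 ± 0.994% in Node and 14.5 ± 3.41% in Tract. The calls chose these sets, so their shares are a description.

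**Figure D2:**
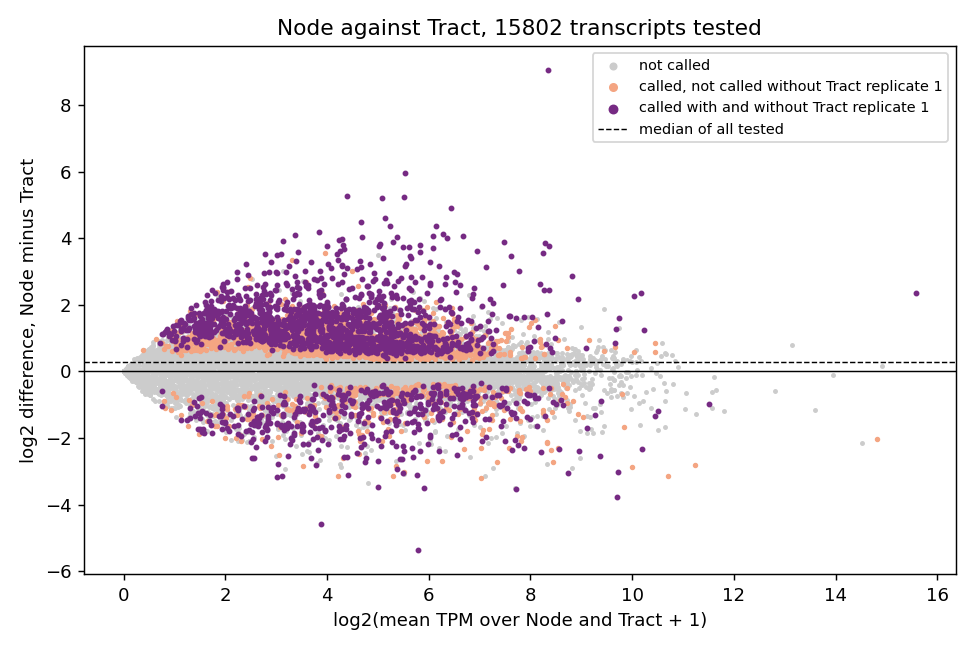
Log2 difference of Node minus Tract against mean level for each of the 15802 tested transcripts, coloured by whether the call at an adjusted p under 0.05 was made with all 4 Tract libraries and without Tract replicate 1. Calls above 0 outnumber those below (3124 against 812), the dashed median of all transcripts lies at 0.28, and the point at the far right is Sp9509d010g010280_T001.

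The separation of individual libraries was complete for 3876 of the tested transcripts, or 24.5%, in which no Node library overlapped a Tract library. Node was above Tract in 2880 of them (18.2% of those tested) and below in 996 (6.30%). Of the called transcripts 2191 of those higher in Node and 623 of those lower had no overlap. Detection in a single region was rare. At 1 TPM or more in all 4 Node libraries and under 1 TPM in all 4 Tract libraries there were 85 transcripts, with a median of 3.68 TPM in Node. The reverse held for 18, with a median of 3.53 TPM in Tract. In both sets few were abundant, with 8 and 1 at a mean of 10 TPM or more. These sets were chosen by level, and 83 of the 85 and 15 of the 18 were also called.

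Their levels in the other regions went separate ways. Of the 85 transcripts at 1 TPM or more in Node and not in Tract, 75 had a mean of at least 1 TPM in NodeTract, 32 in Stipe, 15 in LowerWall, 10 in Apical and 11 in Basal. Of the 18 at 1 TPM or more in Tract and not in Node, 18 had such a mean in LowerWall, 10 in Apical, 9 in Stipe, 7 in NodeTract and 5 in Basal. Over all transcripts of the table the shares were 92.4% in NodeTract, 87.7% in LowerWall, 88.6% in Stipe, 79.8% in Apical and 81.4% in Basal. Most of the 85 were thus under 1 TPM in the blade regions Apical and Basal.

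The same pattern was seen in the called transcripts. Among the 5 other regions, NodeTract had the highest mean for 2104 of the 3124 transcripts higher in Node (67.3%), against 36.0% of all tested transcripts. LowerWall was highest for 38 of them (1.22%). Of the 812 transcripts lower in Node, LowerWall was highest for 405 (49.9%), against 11.6% of all tested, and NodeTract for 14 (1.72%). The blade regions were also above their shares of all tested, Apical with 13.1% against 7.23% and Basal with 16.6% against 13.8%. The median log2 level of the 812 was 5.54 in LowerWall, 5.19 in Apical and 5.06 in Basal, against 4.43 in Stipe and 4.41 in NodeTract. Stipe was highest for 27.7% of those higher and 18.7% of those lower in Node, both below its 31.4% of all tested. With a difference of at least 2, NodeTract was highest for 209 of 266 transcripts higher in Node, and LowerWall for 66 of 100 lower in Node.

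**Figure D3:**
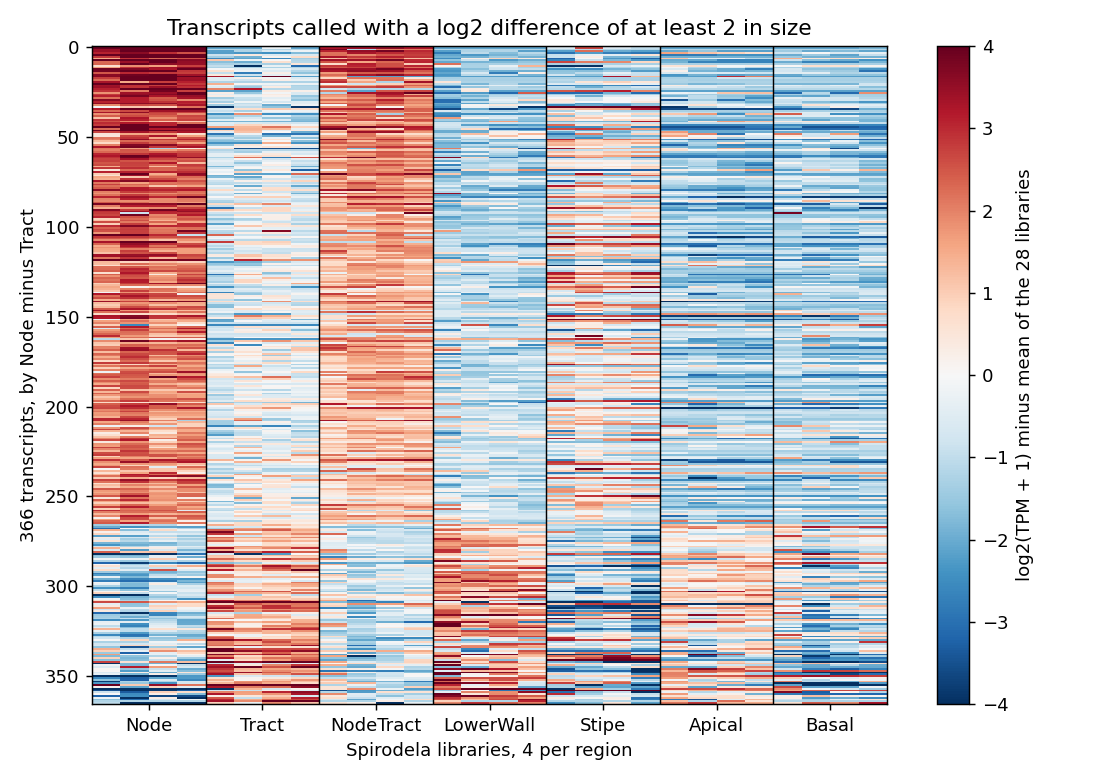
Log2(TPM + 1) minus the mean over the 28 libraries for the 366 transcripts called with a difference of at least 2, as rows ordered from the highest to the lowest Node minus Tract value, with 4 libraries per region as columns. The upper 266 rows are mostly high in Node and NodeTract, and the lower 100 mostly in Tract and LowerWall. Stipe was the highest of the 5 other regions for 44 of the 266 and 12 of the 100.

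Contrasts that used no Node or Tract library were read for the same transcripts. They set NodeTract, Stipe and LowerWall each against the blade, the mean of Apical and Basal, and thus share the blade libraries with each other. NodeTract was called higher than the blade for 2581 of the 3124 transcripts higher in Node (82.6%, background 44.1%) and lower for 36 (1.15%, background 14.3%). For the 812 transcripts lower in Node these counts were 56 (6.90%) and 336 (41.4%). The overlap made up 37.1% of all transcripts called higher in NodeTract than in the blade.

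LowerWall was called higher than the blade for 369 of the 812 transcripts lower in Node (45.4%, background 25.7%), and lower for 109 (13.4%, background 10.9%). For the transcripts higher in Node it was called higher for 1015 (32.5%) and lower for 100 (3.20%). Stipe was called higher than the blade for 1805 transcripts higher in Node (57.8%, background 40.0%) and lower for 109 (3.49%, background 18.0%). For the transcripts lower in Node, Stipe was called higher for 179 (22.0%) and lower for 356 (43.8%). The median Stipe minus blade difference was 0.67 for transcripts higher in Node, -0.38 for those lower and 0.35 for all tested. These shares were not tested, and all contrasts came from the same fit with a shared estimate of the spread.

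NodeTract was often outside the range between Node and Tract. Its mean lay between theirs for 68.0% of transcripts higher in Node and 46.9% of those lower, against 35.1% of all tested. For 45.6% of the transcripts lower in Node it lay below the Node mean. The calls chose transcripts with a gap between Node and Tract, which leaves more room between their means. The shares among called transcripts are thus a description and cannot be weighed against that of all tested. All 4 NodeTract libraries stood below all 8 Node and Tract libraries for 1529 transcripts (9.68%) and above all 8 for 516 (3.27%). The corresponding figures were 11.4% and 4.11% for LowerWall, 12.6% and 11.3% for Stipe, 29.7% and 7.35% for Apical, and 23.2% and 8.20% for Basal.

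Whole libraries were also correlated on the log2(TPM + 1) scale. Node libraries had a mean Pearson r of 0.945 with each other, 0.901 with NodeTract and 0.889 with Tract, and 0.900 with Tract when Tract replicate 1 was left out. With LowerWall they had 0.814, with Stipe 0.774, with Basal 0.757 and with Apical 0.754. Tract libraries had 0.930 with each other, 0.889 with Node, 0.884 with LowerWall, 0.864 with NodeTract, 0.837 with Apical, 0.824 with Basal and 0.783 with Stipe. Leaving out Tract replicate 1, these were 0.939 with each other, 0.900 with Node, 0.886 with LowerWall and 0.877 with NodeTract. The values with Apical, Basal and Stipe were then 0.832, 0.824 and 0.792. These values run across transcripts, which are not independent, and libraries of Node and Tract share a label block.

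Transcripts higher in the blade, here Apical and Basal, could be read without gene names, though what they do is unknown. A list of 199 transcripts was taken that were called at least 2 lower on the log2 scale in each of NodeTract, Stipe and LowerWall than in the blade. It held 1.43%, 1.57%, 1.99% and 1.31% of TPM in the Node columns 1, 3, 5 and 6, against 2.24%, 2.60%, 2.12% and 2.71% in Tract replicates 1 to 4. By this summed share every Node library was below every Tract library, and all 8 were below Apical and Basal, where the list held between 8.21% and 16.2%. The list held 0.741% to 3.13% in LowerWall, a range that takes in all 8. In NodeTract it held 0.532% to 1.56% and in Stipe 0.354% to 0.852%. The levels in these other regions chose the list, so its shares there are a description. By the list's median log2(TPM + 1) Tract replicate 1 went the other way. That median was 2.80, 2.94, 3.13 and 2.77 in the Node columns 1, 3, 5 and 6, against 2.45 in Tract replicate 1 and 3.63, 3.26 and 3.53 in Tract replicates 2 to 4. Of the list 126 to 140 transcripts were at 1 TPM or more in Node, against 118 in Tract replicate 1 and 132 to 144 in the other Tract libraries. Of the list's transcripts, 1 was called higher and 12 lower in Node, or 0.503% and 6.03% of the list, beside the backgrounds of 19.8% and 5.14%. Their median log2 difference was -0.29, and 0.28 over all tested, and without Tract replicate 1 it was -0.43, with 0.17 over all tested. The part that blade RNA in the dissected pieces has in the Node and Tract calls was not tested.

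Tract replicate 1 stood apart from the other Tract libraries. Its 10 most abundant transcripts held 27.0% of all TPM, against between 15.7% and 20.4% in Node and 16.5%, 16.5% and 15.9% in Tract replicates 2 to 4. It had 13598 transcripts at 1 TPM or more, and the other Tract libraries between 14435 and 14684. On the first principal component of the 8 libraries, with 49.9% of the variance, Node lay between -76.0 and -30.6 and Tract replicates 2 to 4 between 12.1 and 49.6, with Tract replicate 1 at 106. On this component it lay beyond its region on the side away from Node. On the second component, with 15.3%, Node lay between -18.8 and 39.5, Tract replicate 1 at 49.2 and Tract replicates 2 to 4 between -42.0 and -27.8, so there it lay on the side of Node and past it. Its mean r was 0.855 with Node, against 0.893 to 0.911 for the other Tract libraries.

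**Figure D4:**
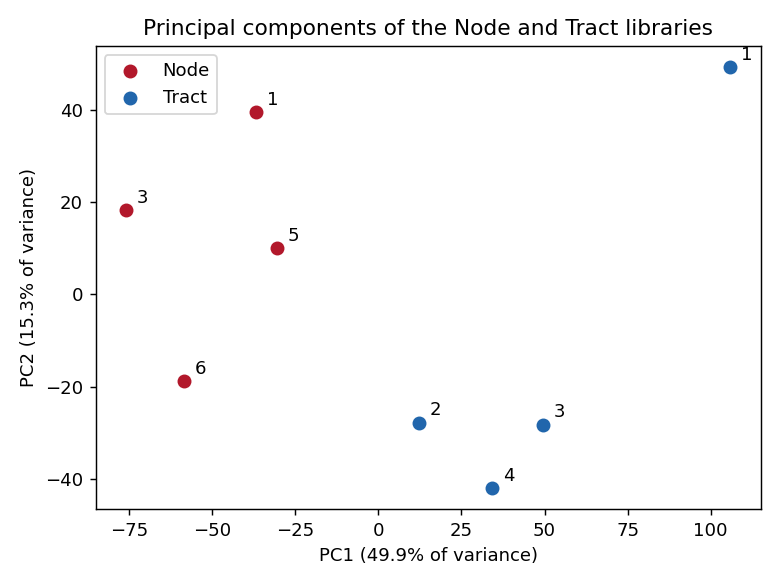
First and second principal components of log2(TPM + 1) for the 4 Node and 4 Tract libraries, numbered by column or replicate, with the share of variance on each axis. Node and Tract separate on the first component, with Tract replicate 1 at 106 on the far side of its region and the Node column 3 at -76.0 at the opposite end.

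Among transcripts that were not called, the 2 with the largest excess and the 2 with the largest deficit of Tract replicate 1 in TPM were read, a choice that favours abundant transcripts. Sp9509d003g002020_T001 had 20057, 2998, 12265 and 3892 TPM in the Node columns 1, 3, 5 and 6, against 74320, 20233, 26127 and 28830 TPM in Tract replicates 1 to 4. Tract replicate 1 alone was more than the sum of any 2 other Tract libraries, and the Node columns 1 and 3 were also far apart. The log2 difference was -2.16 (SE 1.11, limma adjusted p = 0.151). Sp9509d002g001530_T001, the second most abundant transcript of Node, averaged 33190 ± 9534 TPM in Node and 28672 ± 5091 TPM in Tract (SD, n = 4 each), with 35771 TPM in Tract replicate 1. Its log2 difference was 0.18 (95% interval -0.73 to 1.08).

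Sp9509d015g001330_T001 had 6784, 8798, 12715 and 16270.1 TPM in the Node columns 1, 3, 5 and 6, against 2848 TPM in Tract replicate 1 and 10764, 9590 and 4621 TPM in Tract replicates 2 to 4. Sp9509d005g005020_T001 had between 4505 and 7043 TPM in Node, against 5732 TPM in Tract replicate 1 and 10641, 8392 and 9787 TPM in the other Tract libraries. In this transcript Tract replicate 1 was the Tract library nearest to Node, so its deviation was not always away from Node. The log2 differences were 0.80 (limma adjusted p = 0.316) and -0.58 (adjusted p = 0.320).

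Over all tested transcripts Tract replicate 1 was the farthest of its region from the median of the other 3 in 41.0%, and the other Tract libraries in 25.0%, 16.3% and 16.3%. The Node libraries were more even, between 23.2% and 26.5%. Among transcripts called higher in Node, Tract replicate 1 was the lowest Tract library in 75.7% and the Node column 3 the highest Node library in 56.0%. Among those called lower, Tract replicate 1 was the highest Tract library in 30.8%, close to the 29.2% and 27.1% of Tract replicates 3 and 4. These same libraries chose the calls, and such shares were not computed over all tested transcripts. They are thus a description and not a trait of the called transcripts. The median over all transcripts of a Tract library minus the Node mean was -0.59 in Tract replicate 1 and -0.07, -0.26 and -0.15 in Tract replicates 2 to 4. After rescaling these values were -0.08, -0.04, -0.06 and -0.03.

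Without Tract replicate 1 the calls fell to 1861 (11.8% of those tested), 1329 higher and 532 lower in Node. Of the 3124 transcripts higher in Node 1322 were called again, as were 474 of the 812 lower, and none turned. The median log2 difference over all tested was then 0.17. Leaving out the Node column 3, at the other end of the first component, gave 1999 calls (12.7%), with 1554 and 424 of those called with all libraries. Without both, which was tried after seeing the data, 927 were called (5.87%), 649 higher and 278 lower. By contrast 4952 (31.3%) were called without Tract replicate 2, the Tract library nearest to Node on the first component. Without the Node columns 1, 5 and 6 there were 2981 (18.9%), 3840 (24.3%) and 3019 (19.1%) calls, and without Tract replicates 3 and 4 there were 2836 (17.9%) and 3868 (24.5%).

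The libraries of the other regions entered the calls through the shared estimate of spread. A fit restricted to Node and Tract called 1899 (12%), of which 1289 were higher and 610 lower. With quality weights for the libraries, which were 0.334 for Tract replicate 1 and between 0.730 and 1.47 for the others, it called 2381 (15.1%), and without Tract replicate 1 it called 1277 (8.08%). Rescaling without Tract replicate 1 left 1655 (10.5%). A pseudocount of 0.1 gave 2941 (18.6%). Without the filter on low transcripts 3902 of 16332 (23.9%) were called, and with the filter applied to the 8 libraries alone 3932 of 14893 (26.4%).

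**Figure D5:**
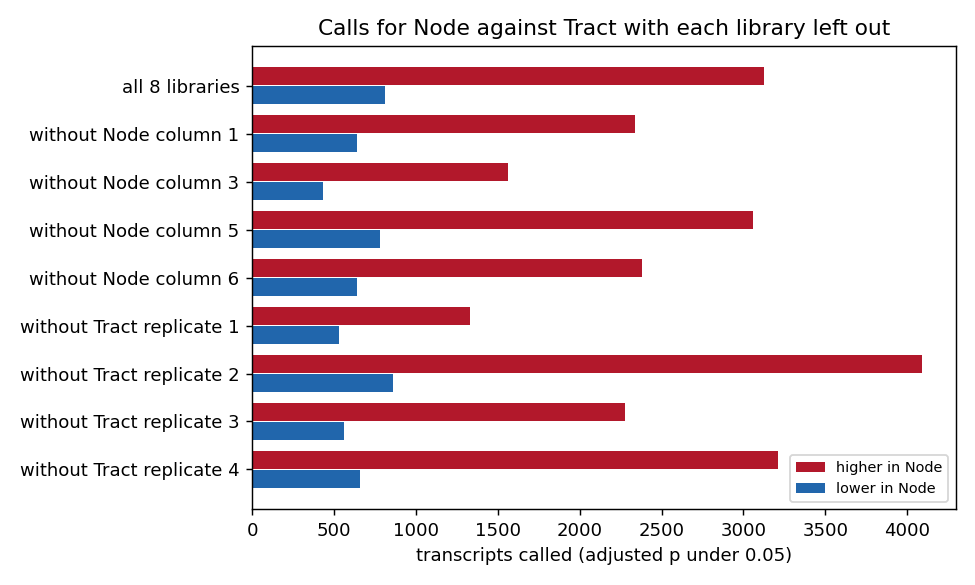
Number of transcripts called higher (red) and lower (blue) in Node than in Tract with all 8 libraries and with each library left out of the fit in turn. Leaving out Tract replicate 1 or the Node column 3 gives the fewest calls, 1861 and 1999 in all, and leaving out Tract replicate 2 the most, 4952.

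A core of calls did not rest on any single library. Of the transcripts higher in Node 1231 (39.4%) were called in all 8 fits that left out a library, and of those lower 345 (42.5%). A smaller core of 848 higher and 300 lower was called with a pseudocount of 0.1, after rescaling, in the fit restricted to both regions, without Tract replicate 1 and without the Node column 3. The calls made also without Tract replicate 1 are a subset of the calls with all libraries, read at the same regional levels. Their regional pattern is therefore a description and no separate check. NodeTract was the highest other region for 68.5% of the 1322 transcripts higher in Node, and LowerWall for 52.5% of the 474 lower.

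Node libraries had more transcripts at 1 TPM or more than Tract libraries, at 14747, 14915, 14764 and 14909 in the Node columns 1, 3, 5 and 6, against 13598, 14684, 14435 and 14611 in Tract replicates 1 to 4. The groups did not overlap, with means of 14834 ± 90.7 and 14332 ± 500.4 (SD, n = 4 each). The two-sided exact permutation p was 0.0286, which no design of 4 against 4 can go below, and 0.0571 after adjustment over the 2 measures tested this way. Without Tract replicate 1 the excess of Node fell to 257 transcripts, in place of 502. The 10 most abundant transcripts together held, on average, 18.2 ± 1.96% of TPM in Node and 19.0 ± 5.37% in Tract (SD, n = 4 each), with an exact permutation p of 0.914. Without Tract replicate 1 its direction turned.

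The identifiers carry a group number from 1 to 20 and a running number within the group, whose meaning the table does not state. The share of calls differed between these groups, which was not tested. In group 17, 36 of 398 tested transcripts were called lower in Node (9.05%, background 5.14%). The share of calls lower in Node was between 3.35% and 6.90% in the other groups. Calls higher in Node ranged from 15.0% in group 15 to 24.7% in group 12.

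Called transcripts also lay beside each other in the order of the identifiers. Of the 812 transcripts lower in Node 173 (21.3%) had a direct neighbour also called lower, while 9.79% of all tested transcripts had such a neighbour. For those higher in Node the shares were 41.8% and 35.5%. The longest run called lower was 5 transcripts in group 19, and the longest called higher 8 transcripts in group 2. Whether neighbours are near-identical copies, between which reads could have been divided, was not examined, and these runs were not tested.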

How the data were processed

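The authors deposited TPM values. The submitters' processing notes name Salmon 1.10.0, without its index or transcript set, and each listed transcript exceeded 2.00 TPM in some library. Spirodela libraries summed to between 999671 and 999911 TPM. Read depth is unknown, so no counting error can be given. The table pairs no identifier with a gene name, so marker lists were not tested and no sequence is shown.

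The Node columns are numbered 1, 3, 5 and 6 and their labels 1 to 4. They were used as 4 replicates without a pairing, and named by column number. Labels call the replicates biological, without naming cultures, so p-values measure a spread between samples. In the main limma fit this spread was that within regions over all 28 Spirodela libraries, most of them neither Node nor Tract. The fit restricted to both regions and the permutation tests used the Node and Tract libraries alone.

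Regions were compared with limma 3.58.1 in R 4.3.3 on log2(TPM + 1), with a mean-variance trend and all 28 Spirodela libraries in the fit. Transcripts needed at least 1 TPM in at least 4 libraries. Differences on this scale understate the fold of low transcripts. The fit was tested on simulated data in which a transcript had the same spread in every library. That simulation held no outlying library and no shift of a whole library, so it does not bear on Tract replicate 1. Permutation tests used SciPy 1.17.1 and Python 3.11.15.

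Named transcripts were the first 2 in each direction by mean TPM in the higher region, among those called with and without Tract replicate 1, at least 2 in log2 difference and not overlapping. For Tract replicate 1 they were the 2 uncalled transcripts with its largest excess and the 2 with its largest deficit. The comparison, rules and lists were chosen with earlier results of these data known, and the blade list was added after the files were read. Alternatives were another pseudocount, other filters, rescaling, smaller fits, quality weights and leaving out libraries.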

Additional observations from a re-analysis of the deposited data

Results flagged for a closer look

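Libraries far from the other 3 of their region were looked for in 66 groups of 4, by the gap to the nearest library over the range of the group. About 1 in 20 groups is marked this way by chance, and 4 were marked. Tract replicate 1 held 27.0% of its TPM in its 10 most abundant transcripts, with 94.4% of the range between it and the next Tract library. Tract replicate 1 also stood apart in Sp9509d003g002020_T001, at 74320 TPM. That transcript was chosen for its excess in Tract replicate 1, so the rate by chance does not hold for it. Sp9509d003g009060_T001 was marked in Tract replicate 3, at 666 TPM, and in Stipe replicate 4, at 2144 TPM. All 4 Node values of Sp9509d003g009060_T001 lay above all 4 Tract values.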

How the results depend on the processing

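No paired analysis was possible because the Node columns carry numbers that do not match their labels. The 4 named transcripts kept their direction under all 17 alternatives and lost the call in 5 of 68 fits: Sp9509d010g010280_T001 in the fit restricted to both regions, there also with quality weights or without Tract replicate 1 (limma adjusted p = 0.355, 0.381 and 0.591), and both lower transcripts without Tract replicate 1 and the Node column 3 (adjusted p = 0.0644 and 0.0651). The cause of these losses was not tested. The named transcripts were chosen for groups without overlap, so leaving out libraries could not turn their direction. Their call without Tract replicate 1 was also a condition of the choice.

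Counts of calls depended on the fit. Rescaling gave 3087, with 1719 higher and 1368 lower, and 1655 without Tract replicate 1, of which 948 were higher. The fit of both regions alone gave 1899 (1289 higher), with quality weights 2381 (1667 higher), and without Tract replicate 1 1277 (862 higher, 415 lower). Leaving out 1 library gave 1861 to 4952 calls, 1329 to 4091 higher, 434 to 861 lower and 273 to 493 of at least 2. Without Tract replicate 1 and the Node column 3 there were 927 (649 higher, 278 lower), 226 of at least 2. Those of at least 2 were 366 with all libraries and 613 with a pseudocount of 0.1. The median log2 difference was 0.28, with 0.062 after rescaling, 0.052 with rescaling and without Tract replicate 1, 0.17 in the fit of both regions without Tract replicate 1, 0.14 without both libraries, and 0.17 to 0.35 without 1 library. Other filters changed each count of calls by less than 1.5 times.

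The excess of transcripts at 1 TPM or more in Node was 257 to 619 without 1 library, where no permutation p can go below 0.0571. The Node minus Tract share of the 10 most abundant was -0.75 percentage points, and -1.77 to 1.93 without 1 library. It turned to 0.11 without the Node column 6 and to 1.93 without Tract replicate 1. Transcripts at 1 TPM or more in Node and not in Tract were 85, then 172 at a minimum of 5 TPM and 92 to 136 without 1 library. Those in Tract and not in Node were 18, then 49 at 5 TPM, 33 after rescaling and 23 to 32 without 1 library. Pearson and Spearman correlations differed by less than the spread between pairs. TPM gives no depth, so no detection limit can be set for these levels.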
